A study of Mus musculus with 96 samples.

Results

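The 35 transcripts described here are genes of macrophages and other myeloid cells measured in a time series of mouse liver. They were chosen by their high levels in 6 libraries, those labelled as liver knockout at circadian times 42, 44 and 46 h (CT42 to CT46), together with myeloid genes that did not follow, and were looked up by symbol. Each of the 35 was found once among the 13094 entries of the table, as FPKM, the number of fragments scaled to transcript length and library size. The 96 libraries came from whole livers of C57BL/6J males at an age of 3 to 4 months, 2 mice per genotype at each of 24 time points. Flox mice (n = 48) were Rbbp5 (flox/flox); Alb-CRE (-/-). LKO mice (n = 48), their littermates, were Rbbp5 (flox/flox); Alb-CRE (+/-), so that all animals carried the floxed alleles and 1 group also carried Cre. Rbbp5 is a core subunit of the complexes that methylate lysine 4 of histone H3, and the albumin promoter drives this Cre in hepatocytes rather than in macrophages. All mice lived under a cycle of 12 h light and 12 h dark for 2 weeks and then in constant darkness for 24 h, with food at all times, before livers were taken every 2 h over 48 h in darkness. Letters A, B and C tell apart the libraries of 1 time point.

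Alveolar macrophages live in the air spaces of the lung, where they clear surfactant and particles. Kupffer cells are the resident macrophages of liver sinusoids, and monocytes reach the liver from blood and can turn into macrophages there. These cell types share a core of genes for engulfing and digesting material, such as lysozyme, cathepsins, Fc receptor adaptors and the phagocyte oxidase, and differ in surface receptors and lipid-handling genes. Several members, among them cathepsins D and Z, gamma actin and thymosin beta 4, are made by many cell types, hepatocytes included.

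Promoters are shown for the macrophage genes Ear2 and Lyz2, which led the set by fold and by level, and for Ctss and Cd53, which hold a letter match to the binding motif of PU.1, the myeloid transcription factor made by the member Spi1. The sequences are RefSeq promoter windows of mouse build GRCm38.p6, 250 bases before to 50 bases after the gene's start, written 5′ to 3′ along the gene. Capitals mark GAGGAAGT on either strand, here read as its reverse complement ACTTCCTC. Windows are chr14:44102404-44102703 (plus strand) for Ear2, chr10:117282223-117282522 (minus strand) for Lyz2, chr3:95526536-95526835 (plus strand) for Ctss and chr3:106790100-106790399 (minus strand) for Cd53.
Ear2: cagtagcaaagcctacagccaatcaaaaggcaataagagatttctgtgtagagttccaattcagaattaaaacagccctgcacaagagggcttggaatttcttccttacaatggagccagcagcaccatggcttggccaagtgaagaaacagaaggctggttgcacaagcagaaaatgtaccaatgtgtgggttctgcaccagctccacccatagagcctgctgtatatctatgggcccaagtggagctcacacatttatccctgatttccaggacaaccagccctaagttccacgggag
Lyz2: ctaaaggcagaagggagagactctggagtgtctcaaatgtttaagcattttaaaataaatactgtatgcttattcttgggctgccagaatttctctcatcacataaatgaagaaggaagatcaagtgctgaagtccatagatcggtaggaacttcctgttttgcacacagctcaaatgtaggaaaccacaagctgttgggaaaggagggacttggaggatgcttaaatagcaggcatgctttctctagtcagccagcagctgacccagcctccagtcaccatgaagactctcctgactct
Ctss: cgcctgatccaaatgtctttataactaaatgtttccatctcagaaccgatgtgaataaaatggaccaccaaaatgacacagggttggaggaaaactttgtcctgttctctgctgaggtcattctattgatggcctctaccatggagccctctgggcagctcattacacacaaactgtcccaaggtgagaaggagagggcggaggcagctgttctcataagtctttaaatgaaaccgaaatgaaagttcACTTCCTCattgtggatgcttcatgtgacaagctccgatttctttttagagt
Cd53: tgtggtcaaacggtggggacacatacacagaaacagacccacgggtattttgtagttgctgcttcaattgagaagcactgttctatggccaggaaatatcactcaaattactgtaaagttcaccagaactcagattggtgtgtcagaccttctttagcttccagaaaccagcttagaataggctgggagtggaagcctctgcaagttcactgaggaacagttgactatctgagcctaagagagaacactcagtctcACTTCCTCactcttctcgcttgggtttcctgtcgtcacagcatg
A promoter window was at hand for 30 of the 35 members. GAGGAAGT occurred in 3 of the 30 (Cd53, Ctss and Ly6c2), or 10%, beside 3.69% of 27025 gene promoters of the same length. The shorter AGGAAG, which every GAGGAAGT contains, occurred in 15 of 30 (50%) beside 38.4% of all promoters. These matches are descriptions of the letters in a window.

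Before the results, libraries that stand apart are named. The 6 libraries labelled LKO at CT42 to CT46 chose the members, so they are described without a test, and the tests reported use CT0 to CT40, apart from alternatives named as using all libraries or CT0 to CT46. Within the 6, the library CT44B differed from the other 5 in the monocyte members Ccr2, Cx3cr1 and Plac8 and in genes outside the set. It was the lowest of the 6 for the monocyte gene Ly6c2, at 9.67 FPKM. It held 1045 FPKM of the fetal noncoding RNA H19 and 683 of Lcn2, the neutrophil gelatinase-associated lipocalin, where the other 5 held at most 66.0 and 30.7, although Lcn2 reached 1059 in LKO at CT0 to CT40. Among the 42 LKO libraries of CT0 to CT40, CT12A held the highest value of 22 of the 35 members. Relative depth, read from the steps of low values, was 0.826 to 1.08 in the 6 libraries, beside 0.826 to 1.67 in other LKO libraries. Rbbp5 measured 3.35 ± 0.527 FPKM in Flox and 2.27 ± 0.611 in LKO at CT0 to CT40 (SD, n = 42 each; log2 difference -0.42, SE 0.04, adjusted p = 1.84e-12, limma). In the 6 libraries labelled LKO at CT42 to CT46 it measured 3.79 ± 0.399 FPKM, above the 2.71 ± 0.718 of Flox at those times (n = 6 each). This is the reverse of the order at CT0 to CT40, and its cause was not tested.

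In the libraries labelled LKO at CT42 to CT46 most members were expressed at levels found in no other liver of the series. Each of the 6 libraries lay above each of the other 90 for 30 of the 35 members, where 16% of all entries did so. This share was used in choosing the members and is no result about them. Fold of mean FPKM over LKO at CT0 to CT40 had a median of 23.8 (SD over the 6 libraries 5.68), a lowest value of 1.95 and a highest of 389. It was at least 100 for 6 members and below 10 for 9. After median-ratio scaling the median fold was 17.6, and against Flox at CT42 to CT46 it was 31.6. The 35 members made up 3.21 to 6.02% of all FPKM in the 6 libraries, 0.112 to 0.302% in LKO and 0.105 to 0.206% in Flox before CT42 and 0.1003 to 0.171% in Flox at CT42 to CT46.

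**Figure D1:**
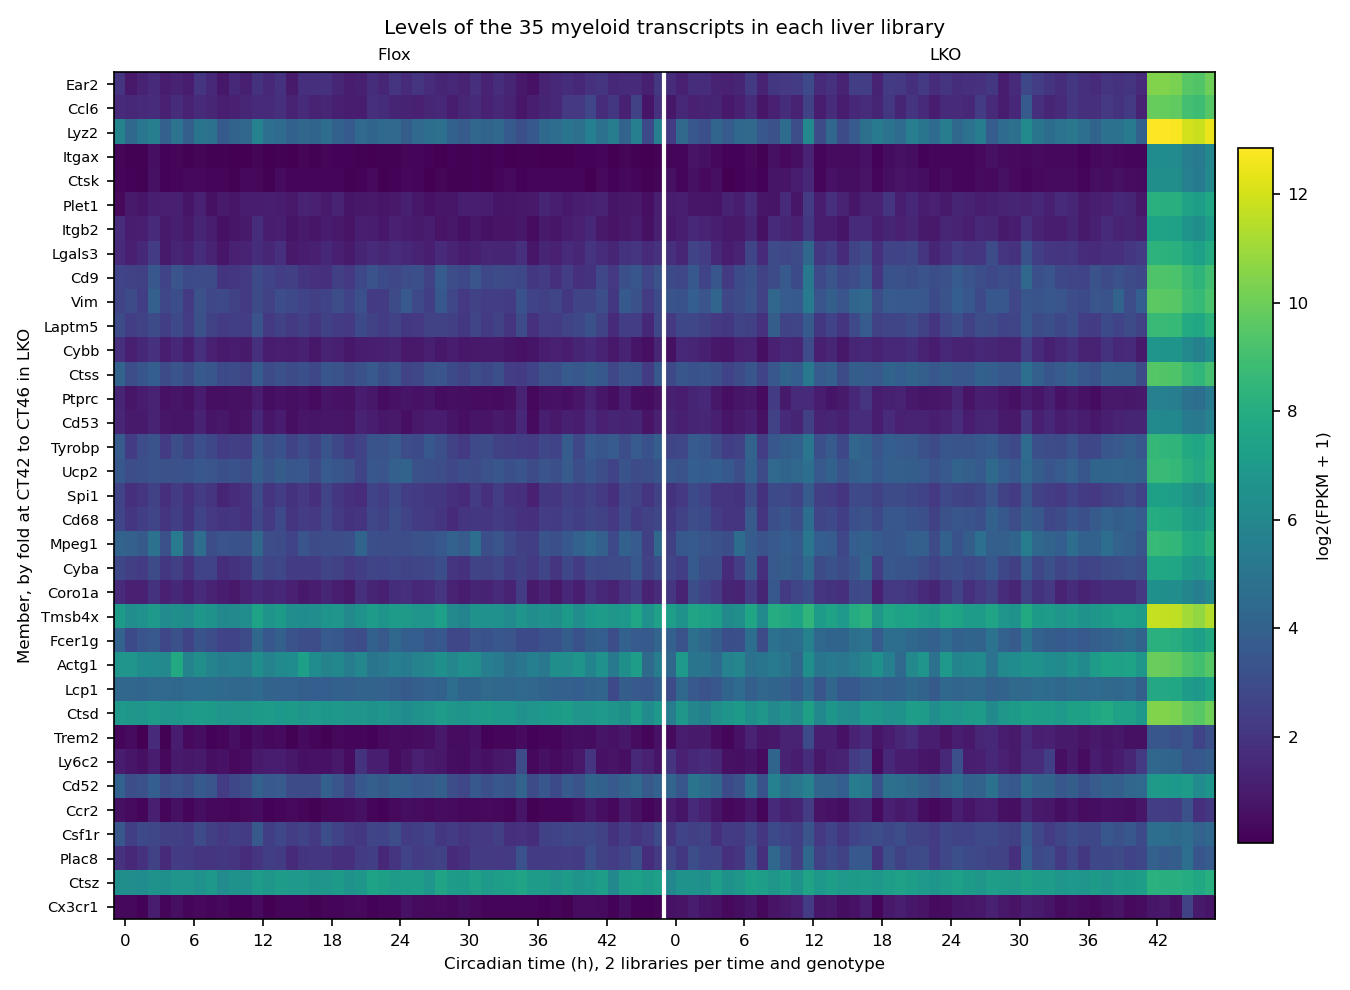
Level of each of the 35 members (rows, by fold) in each of the 96 libraries (columns, by genotype and circadian time), on the log2(FPKM + 1) scale. The last 6 LKO columns, CT42 to CT46, are brighter than all others for 30 members, and Ctsz, Plac8 and Cx3cr1 at the bottom differ least.

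Ear2, Plet1, Itgax and Ctsk, which alveolar macrophages express, were among the 8 members with the largest folds. Ear2, an eosinophil-associated ribonuclease, measured 1387, 1361, 1261, 742, 673 and 1062 FPKM in CT42A, CT42B, CT44A, CT44B, CT46A and CT46B. In LKO at CT0 to CT40 it ran from 1.09 to 6.36 FPKM (median 2.57), and in Flox at CT42 to CT46 from 1.24 to 3.32. Its fold of 389 ranked 1 of the 4110 entries with at least 10 FPKM in the 6 libraries. Plet1, a surface protein of alveolar macrophages and trophectoderm, ran from 141 to 291 FPKM (median 242) against 0.682 to 3.82 in LKO at CT0 to CT40. Itgax, the integrin CD11c, ran from 39.4 to 76.7 FPKM (median 66.9) against 0.0661 to 1.37, and Ctsk, the cathepsin best known from osteoclasts, from 40.8 to 84.7 against 0.0437 to 1.87. The groups did not overlap for any of these 4, and CT42A was the highest and CT46A the lowest library for each. Reads of Ear2 may be shared with near-identical Ear genes, so the name of the copy is uncertain.

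Lyz2, a secreted product, had the highest level of the set. This macrophage lysozyme measured 7428, 7286, 6904, 4051, 3667 and 5664 FPKM in the same order of libraries, 3.85 to 68.8 FPKM in LKO at CT0 to CT40 and 6.26 to 47.0 in Flox at CT42 to CT46. Unlike Ear2, it was well expressed in liver outside the 6 libraries, with a Flox median of 19.99 FPKM at CT0 to CT40. The chemokine Ccl6 ran from 468 to 933 FPKM (median 789) against 0.775 to 11.8, a fold of 325 and rank 2. Lgals3, the galactose-binding galectin 3, ran from 157 to 318 FPKM against 1.08 to 18.9, a fold of 62.1. Reads of Lyz2 may be shared with its near-identical neighbour Lyz1.

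Lysosomal members split by how strongly liver expressed them otherwise. Cathepsin S (Ctss), a protease of antigen presentation, ran from 352 to 701 FPKM against a median of 11.7 in LKO at CT0 to CT40, a fold of 44.8. Laptm5, a lysosomal membrane protein of leukocytes, had a fold of 54.5, Cd68, a lysosomal glycoprotein of macrophages, 21.8, and Mpeg1, the pore-former perforin 2, 21.7. Cathepsin D (Ctsd) ran from 728 to 1389 FPKM, the third level of the set after Lyz2 and the thymosin Tmsb4x, but its LKO median at CT0 to CT40 was already 113 FPKM and the fold was 9.62. Cathepsin Z (Ctsz) measured 294, 279, 268, 248, 206 and 280.0 FPKM against 64.0 to 174 in LKO at CT0 to CT40 and 74.1 to 185 in Flox, a fold of 2.07. Its 6 libraries still lay above every other library, by a narrow margin.

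Receptors and their adaptors ranged from strong to hardly raised. The adaptor Tyrobp (DAP12) ran from 193 to 375 FPKM and the Fc receptor gamma chain Fcer1g from 156 to 286, folds of 28.2 and 12.5. Trem2, a lipid-sensing receptor that signals through Tyrobp, reached only 5.13 to 10.2 FPKM, and its lowest library lay below the 6.54 of LKO CT12A. Csf1r, the receptor for macrophage colony-stimulating factor, ran from 15.9 to 24.5 FPKM against 2.58 to 10.9, a fold of 3.73. The monocyte receptor Ccr2 measured 4.08, 4.16, 3.76, 8.21, 2.57 and 3.30 FPKM, against at most 3.75 in other LKO libraries. The fractalkine receptor Cx3cr1 measured 0.751, 0.902, 0.538, 4.73, 0.968 and 0.717 FPKM. Only CT44B lay above LKO CT12A, at 3.95 FPKM, so Cx3cr1 had the smallest fold of the set (1.95).

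Oxidase members and Spi1 lay apart from all other libraries, and surface members did so with the exceptions of Ly6c2 and Plac8. The 2 subunits of cytochrome b558, the core of the phagocyte NADPH oxidase, ran from 50.5 to 104 FPKM (Cybb) and from 106 to 212 (Cyba), folds of 48.7 and 21.04. Itgb2, the beta 2 integrin that pairs with Itgax, ran from 85.8 to 174 FPKM against 0.517 to 3.41, a fold of 98.5. Ptprc, the leukocyte phosphatase CD45, had a fold of 34.5 and the tetraspanins Cd53 and Cd9 of 33.8 and 61.6, whereas the small surface protein Cd52 ran from 73.3 to 135 FPKM against 6.49 to 49.996, a fold of 5.68. Spi1 (PU.1) ran from 81.3 to 157 FPKM against 2.75 to 12.0. Ly6c2, a monocyte surface protein whose reads may be shared with Ly6c1, ran from 9.67 to 19.8 FPKM against 0.345 to 16.9, and Plac8 from 10.3 to 25.2 against 2.40 to 19.7, so both overlapped. LKO CT8B held the highest Ly6c2 value outside the 6, and LKO CT12A the highest Plac8 value.

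Among cytoskeletal members, Tmsb4x and Actg1 were abundant outside the 6 libraries too, whereas Coro1a had an LKO median of 2.97 FPKM at CT0 to CT40. Tmsb4x, which binds monomeric actin, ran from 1752 to 3446 FPKM, second to Lyz2, with an LKO median of 147 FPKM at CT0 to CT40. Vimentin (Vim), an intermediate filament of mesenchymal cells and leukocytes, ran from 394 to 788 FPKM, a fold of 55.5. Actg1 had a fold of 11.1, the actin bundler Lcp1 10.6, the leukocyte coronin Coro1a 20.3 and the mitochondrial uncoupling protein Ucp2 24.1. Reads of Actg1 may be shared with Actb, which ran from 1056 to 1681 FPKM in the 6 libraries and from 180.2 to 473 in LKO at CT0 to CT40.

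Most members kept fixed proportions to each other across the 6 libraries although their levels varied about 2-fold. The highest of the 6 was 2.03 times the lowest for Lyz2 and 2.06 times for Ear2. Ear2 measured 18.7, 18.7, 18.3, 18.3, 18.3 and 18.8% of Lyz2, a coefficient of variation (CV) of 1.19%, while the CV of its level was 28.9%. Ccl6 stood at 12.6% of Lyz2 (CV 1.19%), Tmsb4x at 47.9% (6.50%), Ctss at 9.55% (2.89%), Itgb2 at 2.38% (2.26%), Laptm5 at 5.61% (1.94%) and Itgax at 1.07% (2.97%). Of the 34 members other than Lyz2, 15 had a CV of the ratio below 5% and 26 below 10%. With Lyz2 included, 26 members ranked the 6 libraries exactly as Lyz2 did, with CT42A highest and CT46A lowest. This proportionality was not a feature of the members alone. Among 285 other entries with at least 10 FPKM and a 10-fold difference, the median CV of the ratio to Lyz2 was 5.86%, and 224 were below 10%.

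The 8 members with a CV of 10% or more were Fcer1g (10.1%), Ctsz (21.02%), Csf1r (28.2%), Trem2 (30.7%), Cd52 (31.8%), Plac8 (62.6%), Ccr2 (71.1%) and Cx3cr1 (137%). For Ccr2, Cx3cr1, Plac8 and Cd52 the highest of the 6 was CT44B, the library that also held H19 and Lcn2. Subtracting the LKO mean of CT0 to CT40 lowered the CV of Ctsz to 16.5% and of Ctsd from 4.81 to 2.75%, but left Csf1r at 30.2% and Cd52 at 34.7%. Outside the 6 libraries the proportions were different and loose. Ear2 was 11.4% of Lyz2 in LKO before CT42 and 8.28% in Flox (CV 77.1 and 36.9%), Ctsd 472 and 516%, and Ctsz 522 and 545%.

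**Figure D2:**
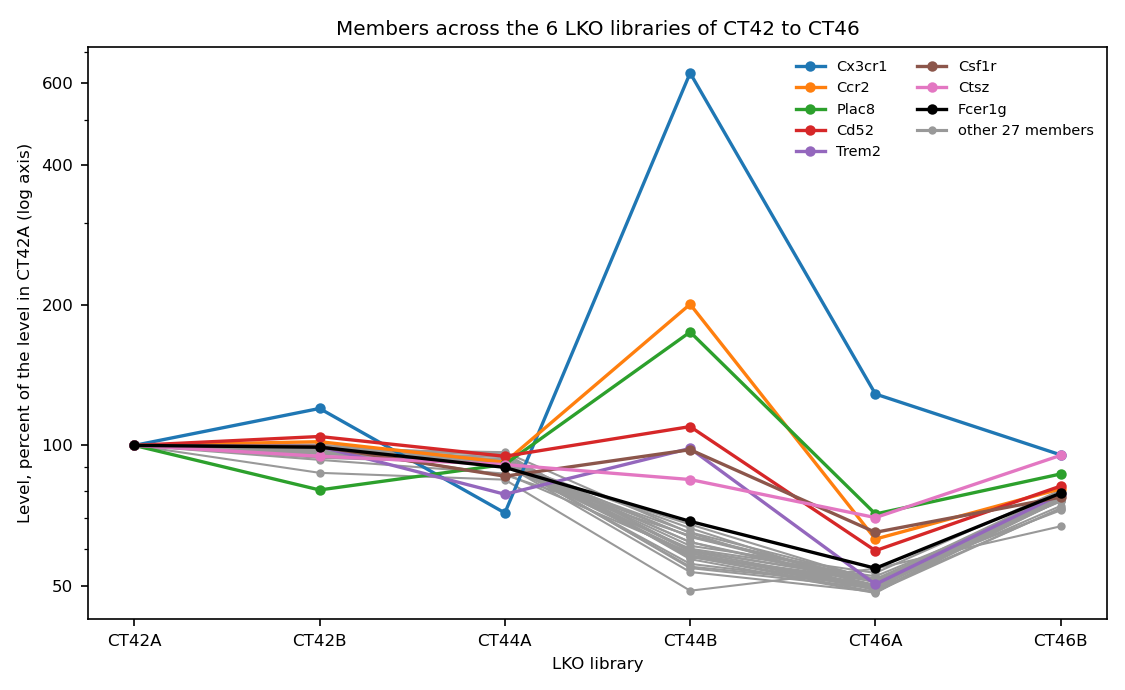
Level of each member in the 6 libraries labelled LKO at CT42 to CT46 as a percent of its level in CT42A, on a log axis. Grey lines are the 27 members with a CV of the ratio to Lyz2 below 10%, which keep together, and the 8 coloured members depart from them, most in CT44B.

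Ratios between partner genes lay apart from other LKO livers for 3 of 6 pairs and overlapped for the other 3. Spi1 was 5.89 times Csf1r, against 0.924 times in other LKO livers and 0.705 times in Flox livers of CT0 to CT40. Its lowest ratio in the 6, 4.28, lay above the highest of other LKO libraries, 1.54. Cyba was 2.02 times Cybb (1.96 to 2.11) against 4.67 and 3.80 times, and Fcer1g 0.790 times Tyrobp (0.750 to 0.880) against 1.78 and 1.43 times. Itgax was 0.448 times Itgb2 against 0.221 and 0.110 times, within the 0.0902 to 0.487 of other LKO livers. Trem2 was 0.0289 times Tyrobp against 0.113 and 0.0497 times, and Coro1a 0.392 times Lcp1 against 0.206 and 0.0947 times, and both overlapped other LKO livers.

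The label of a lung macrophage was checked against markers outside the set. Of 27 alveolar macrophage markers that are not members, 18 had an entry and 13 of these lay above every other library in all 6, where 16% of all entries did. The 5 that overlapped were Marco (10.5 to 18.4 FPKM against up to 12.4 in LKO at CT0 to CT40), Fabp4 (22.1 to 59.9 against up to 26.9), Fabp5 (38.1 to 86.4 against up to 65.9), Mgll (47.2 on average against 41.01) and Fn1 (65.9 on average against 64.03). The 13 include Atp6v0d2, a proton pump subunit (119 FPKM against 0.991 in LKO at CT0 to CT40), Abcg1, a cholesterol exporter (103 against 0.836), the keratin Krt19 (152 against 1.72), Pparg, the lipid-sensing nuclear receptor of alveolar macrophages (39.6 against 2.37), the mannose receptor Mrc1 (63.2 against 2.39) and lipoprotein lipase Lpl (209.6 against 9.49). Their summed level was 836 to 1478 FPKM in the 6, 108 to 341 in LKO at CT0 to CT40 and 138 to 238 in Flox at CT42 to CT46. The defining markers Siglecf, Chil3, Car4 and Ear1 were not analysed here. The marker lists were chosen with earlier results of these data known and so are no independent evidence for the label, and several of these genes are also made by bile duct cells, adipocytes or hepatocytes.

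Kupffer cell markers did not share the difference. None of the 12 lay above every other library, and their summed level was 134 to 282 FPKM in the 6 against 170 to 424 in LKO at CT0 to CT40 and 204 to 353 in Flox at CT42 to CT46. The lectin Clec4f measured 7.56 to 17.3 FPKM in the 6 and the receptor Timd4 0.512 to 1.37. Of 14 markers shared by macrophages, 6 lay above all other libraries, among them the surface receptor Adgre1 (F4/80, 23.4 FPKM against 0.688) and the engulfment receptor Mertk (19.6 against 1.55). The complement genes C1qa (47.5 against 42.01), C1qb (35.6 against 31.2) and C1qc (38.8 against 34.4), the transcription factor Maf (1.94 against 2.56) and the scavenger receptor Cd163 (0.928 against 1.01) were not among the 6. The integrin Itgam (CD11b) measured 0.992 FPKM, beside 62.0 ± 16.3 FPKM (SD, n = 6) of its relative Itgax.

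Markers of other cells moved with the members to different degrees, and their part in these differences was not tested. Of 12 lung epithelial genes 5 had an entry, with a summed level of 27.9 to 49.5 FPKM in the 6 and 15.8 to 62.7 in LKO at CT0 to CT40. Napsa, a protease of alveolar type II cells, was the 1 gene of the 5 above every other library (8.03 FPKM against 0.327), and the surfactant protein Sftpd measured 3.81 against 1.18. Neutrophil genes summed to 59.2 to 136 FPKM against 0.778 to 45.3, with S100a8 at 32.4 against 3.43 and the granule gene Ngp at 14.7 against 0.169. Dendritic cell genes summed to 13.6 to 25.3 FPKM against 1.69 to 8.45. Monocyte genes summed to 106 to 157 FPKM against 20.4 to 147, with 4 of 7 above all other libraries, where 16% of all entries were. T and NK cell genes summed to 5.25 to 6.48 FPKM within 1.41 to 28.5, and B cell genes to 9.98 to 19.01 against 1.198 to 8.18, of which Cd22 gave 11.9. Cell cycle genes summed to 80.7 to 140.0 FPKM against 7.498 to 42.9, with 10 of 11 above all other libraries. Cholangiocyte genes, Krt19 among them, summed to 246 to 959 FPKM (median 359) against 31.8 to 507 (median 79.5). In Flox at CT42 to CT46 they summed to 20.5 to 39.2 FPKM. Of the 7 cholangiocyte genes with an entry, 2 lay above all other libraries, where 16% of all entries did. The 15 hepatocyte genes summed to 21920 to 38224 FPKM against 23987 to 50841 in LKO at CT0 to CT40 and 30349 to 51310 in Flox at CT42 to CT46. No gene of these lists was at 0 in all 6 libraries.

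**Figure D3:**
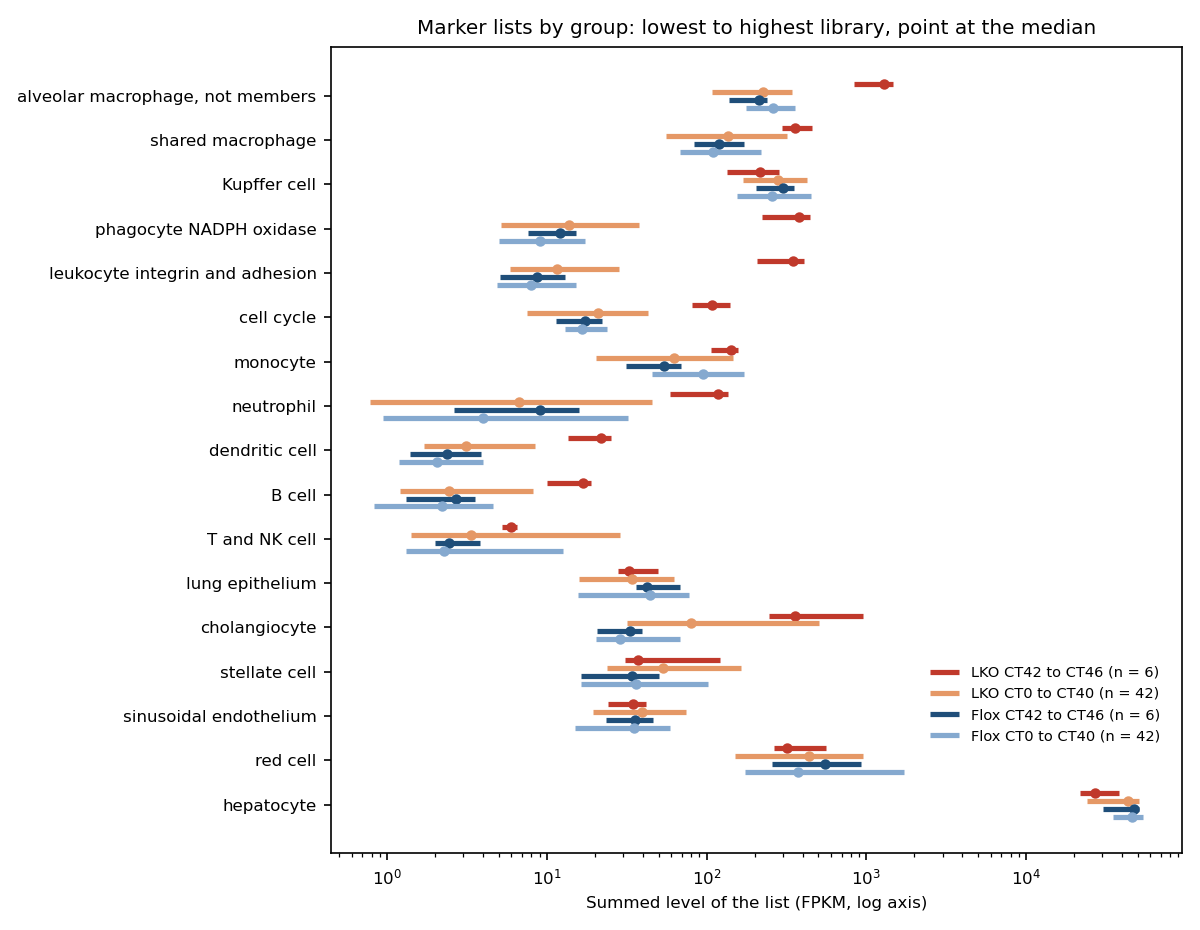
Summed FPKM of marker lists (log axis) in 4 groups of libraries, from the lowest to the highest library with a point at the median. The alveolar macrophage, oxidase, integrin, cell cycle, neutrophil, dendritic cell and B cell lists lie apart in the 6 libraries labelled LKO at CT42 to CT46. The other lists, Kupffer cell, monocyte, sinusoidal endothelium and lung epithelium among them, overlap between groups. Krt19 is in both the alveolar macrophage and the cholangiocyte list.

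Many genes of the pathway lists, which include members, lay above every other library in the 6, where 16% of all entries did. Their levels varied widely. All 6 genes of the phagocyte NADPH oxidase list lay above every other library in the 6, including the cytosolic subunits Ncf1 (45.3 FPKM against 1.15) and Ncf4 (9.08 against 0.779). So did 13 of 15 genes of Fc and ITAM receptor signalling, with the kinase Syk at 31.9 against 0.984, and 14 of 14 genes of the leukocyte cytoskeleton list with an entry. Of 19 lysosomal genes with an entry 12 did so, the saposin precursor Psap (526 against 92.5) included, and cathepsins Ctsb (142 against 85.5) and Ctsl (148 against 139.6) did not. The counts with an entry were 6 of 9 integrin and adhesion genes, 5 of 10 chemokines and 4 of 11 macrophage transcription factors. Members are among the listed genes, so these counts are no test of the lists. They made up 2 of 6 oxidase, 3 of 15 Fc and ITAM, 5 of 15 cytoskeleton and 4 of 20 lysosomal genes. In the other lists they were 2 of 9 integrin and adhesion genes, 1 of 11 chemokines and 1 of 12 transcription factors. The 10 entries with the largest folds were Ear2, Ccl6, the chemokine Ccl3 (263-fold), Lyz2, the immediate early gene Fos (208-fold), LOC100038947 (207-fold), the beta-glucan receptor Clec7a (205-fold), Itgax, the platelet and leukocyte protein Plek (193-fold) and the bacterial lipoprotein receptor Tlr2 (188-fold).

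Liver expressed many members without the 6 libraries. In Flox at CT0 to CT40 the median was at least 1 FPKM for 25 of the 35 and at least 10 FPKM for 7, which were Ctsz (119.6), Ctsd (114), Tmsb4x (94.5), Actg1 (61.1), Lyz2 (19.99), Lcp1 (17.1) and Cd52 (10.2). It was below 1 FPKM for 10: Plet1, Itgb2, Cd53, Ly6c2, Ptprc, Trem2, Ccr2, Cx3cr1, Ctsk and Itgax. The lowest were Itgax at 0.0944 and Ctsk at 0.174 FPKM. Neighbours in this order, such as Ctsz and Ctsd (SD 28.7 and 14.4, n = 42), differed by less than their spread between mice.

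Between genotypes at CT0 to CT40, a contrast without the 6 libraries, most tested members were higher in LKO. The same 84 livers were the low side when members were chosen for CT42 to CT46, and earlier results of this contrast were known. The test was limma on log2(FPKM + 1) with time point in the model, over the 9602 entries averaging 1 FPKM or more in these 84 libraries. That filter kept 29 of the 35 members and left out Itgax, Ctsk, Trem2, Ccr2, Cx3cr1 and Ptprc. Of the 29, 23 were higher in LKO and 0 lower, also 0 at an unadjusted p under 0.05, where 31.1% of all entries tested were higher and 31.4% lower. Without the filter 29 of 35 members were higher, where 36.7% of 13094 entries were. A member that passed the filter through LKO had to be high there, so these counts describe the members and do not test them as a set. Plet1, Cd53 and Ly6c2 passed in this way, with Flox means of 0.979, 0.940 and 0.964 FPKM. In whole tissue, more cells of a type and more RNA per cell cannot be told apart.

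The lysosomal Cd68 gave the smallest p. It ran from 2.11 to 7.81 FPKM in Flox (median 3.64) while LKO spanned 2.88 to 24.6 (median 8.14), a log2 difference of 0.89 (SE 0.10, limma adjusted p = 9.81e-11), higher at 19 of 21 time points. Ranges overlapped, as for all members in this comparison. Fcer1g measured 9.86 ± 3.62 FPKM in Flox and 18.7 ± 7.91 in LKO (SD, n = 42; 0.83, SE 0.10) and was higher at 21 of 21 time points. Lgals3 rose from 1.64 ± 0.604 to 4.12 ± 2.96 FPKM (0.83, SE 0.10, 21 of 21) and Vim from 5.96 ± 2.29 to 11.3 ± 5.67 (0.78, SE 0.10, 21 of 21). Tmsb4x rose from 97.6 ± 25.8 to 157 ± 59.1 FPKM (0.64, SE 0.09) and Ucp2 from 9.31 ± 2.28 to 13.8 ± 3.83 (0.51, SE 0.08). These 6 had adjusted p-values of at most 8.87e-08 in limma.

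Differences also passed for Ear2 (0.39, SE 0.08), Plet1 (0.26, SE 0.06), Itgb2 (0.25, SE 0.06), Spi1 (0.48, SE 0.08), Tyrobp (0.50, SE 0.11), Cyba (0.58, SE 0.10) and Cybb (0.23, SE 0.08). The smallest that passed was Csf1r (0.19, SE 0.09, limma adjusted p = 0.0494), and it no longer passed without LKO CT12A. The 6 that did not pass were Lyz2 (0.01, SE 0.16), Ccl6 (0.13, SE 0.09), Ctsz (0.07, SE 0.06), Ctsd (-0.09, SE 0.08), Lcp1 (-0.09, SE 0.07) and Actg1 (-0.10, SE 0.16). Lcp1 was called lower after median-ratio scaling, the 1 member lower under any scaling of this comparison. Lyz2 and Ccl6, which with Ear2 had the largest folds at CT42 to CT46, were thus among those not called over CT0 to CT40 as a whole. By window, on the values as deposited, Lyz2 was lower at CT0 to CT16 (-0.74, SE 0.23, limma adjusted p = 0.00368). Ccl6 was higher at CT24 to CT40 (0.34, SE 0.13, limma adjusted p = 0.0418). Actg1 (-0.96, then 0.67) and Ctsd (-0.51, then 0.31) were called in both windows with opposite signs.

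Markers of other cells differed between the genotypes in the same 84 libraries, and their part in the members' differences was not tested. Of 12 tested shared macrophage genes 7 rose and 0 fell (2 fell under either other scaling), among them Cd14, the lipopolysaccharide co-receptor (0.67, SE 0.15). Of 11 Kupffer cell genes 1 rose (Id3) and 1 fell (Nr1h3), although after quantile normalization 2 rose and 0 fell. All 4 tested cholangiocyte genes rose, led by the secreted phosphoprotein Spp1 (1.58, SE 0.16), as did 5 of 8 stellate cell genes and both tested neutrophil genes, while 11 of 15 hepatocyte genes fell and 1 rose (0 rose after median-ratio scaling). Of 13 tested alveolar macrophage genes outside the set 4 rose and 5 fell (3 and 4 after quantile normalization), with Lpl at 1.21 (SE 0.13) and Pparg at -0.69 (SE 0.11). Of 10 macrophage transcription factors 4 rose and 4 fell (3 and 5 after median-ratio scaling), and of 2 monocyte genes 0 rose and 1 (Fn1) fell. Of the other pathway lists, 4 of 4 tested oxidase genes rose, 5 of 7 Fc and ITAM genes rose and 1 (Lyn) fell, 7 of 12 cytoskeleton genes rose and 5 of 5 integrin and adhesion genes rose (4 after quantile normalization). In the lysosomal list 4 rose and 5 fell of 18 (4 and 9 with median-ratio scaling, 5 and 7 with quantile normalization), and cathepsin H (Ctsh, -0.52, SE 0.09) and Ctss (0.47, SE 0.10) went opposite ways.

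One library, LKO CT12A, held unusual amounts of most members before CT42. It measured 67.4 FPKM of Lyz2 where its partner CT12B measured 6.89, and 18.9 against 3.40 of Lgals3, 36.5 against 6.27 of Cd9 and 6.54 against 1.15 of Trem2. Its members summed to 0.302% of all FPKM, the highest share outside the 6. Its Itgax, at 1.37 FPKM, stayed far below the 39.4 of the lowest of the 6. Without CT12A 22 members were higher in LKO and 0 lower.

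The genotype difference was not the same in matched windows of both days of sampling, which left out CT18 to CT22. At CT0 to CT16, 17 of the 29 tested members were higher in LKO and 4 lower, where 25.1% of all entries were higher and 46.9% lower. At the matched CT24 to CT40, 24 were higher and 0 lower, where 30.4% were higher and 5.68% lower. The 4 that were lower first were Lyz2, Actg1, Ctsd and Lcp1. After median-ratio scaling or quantile normalization the same 4 were lower and 20 higher at CT0 to CT16, and 12 or 13 were higher at CT24 to CT40 (with Ctsz lower under the first), so the larger count of the second day depended on scaling.

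Lyz2 was lower in LKO at CT0 to CT16, the window of the first day, and its difference at CT24 to CT40 did not pass. In LKO it had a median of 12.2 FPKM at CT0 to CT16 (3.85 to 67.4, n = 18) and of 27.6 at CT24 to CT40 (12.8 to 68.8), while Flox medians were 20.5 and 19.99. The log2 difference was -0.74 (SE 0.23) on the first day and 0.52 (SE 0.23, limma adjusted p = 0.0678) on the second, and the difference between days was 1.26 (SE 0.32, adjusted p = 7.99e-04). Actg1 went from 43.1 ± 26.2 to 97.2 ± 42.9 FPKM in LKO (SD, n = 18), but from 82.5 ± 44.3 to 59.2 ± 22.2 in Flox, a difference between days of 1.63 (SE 0.26), the largest of the tested members. Ctsd went from 88.9 ± 30.6 to 141.6 ± 36.2 FPKM in LKO, but from 120.3 ± 11.2 to 112 ± 17.6 in Flox (0.82, SE 0.15). At CT18 to CT22, in neither window, Lyz2 averaged 31.0 ± 8.89 FPKM in LKO and 18.3 ± 4.34 in Flox (SD, n = 6). Actg1 averaged 59.1 ± 33.2 and 47.6 ± 13.7 there, and Ctsd 111 ± 27.4 and 109 ± 6.71. The lower LKO levels of CT0 to CT16 thus did not extend over the whole first day.

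In all 12 of the 29 tested members changed between days, 9 upward and 3 downward, where 51.3% of all entries went up and 12.6% down. The upward count was below that background share. The median difference between days was 0.26 over all entries and 0.09 over the tested members, and after median-ratio scaling it was -0.01 and -0.16. With that scaling 5 members went up and 7 down, and with quantile normalization also 5 and 7. Lyz2, Actg1, Ctsd, Lcp1 and Csf1r went up and Ctsz, Cd52 and Coro1a down under each scaling. Ccl6, Cd68, Mpeg1 and Cybb passed only on the values as deposited among the 3 scalings. Cd52, for example, had an LKO mean of 24.0 FPKM at CT0 to CT16 and 16.4 at CT24 to CT40, beside 9.34 and 10.9 in Flox.

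**Figure D4:**
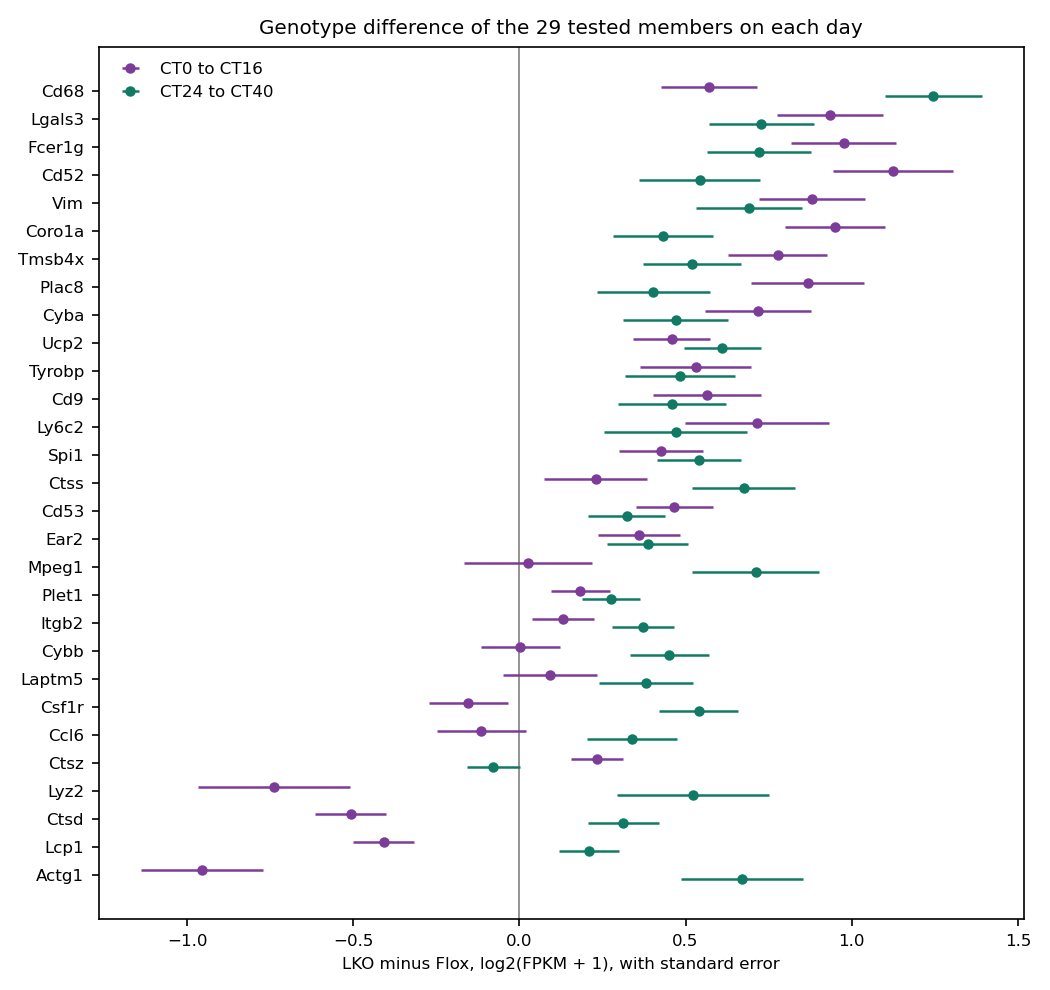
LKO minus Flox on the log2(FPKM + 1) scale, with its standard error, for the 29 tested members at CT0 to CT16 and at CT24 to CT40. Lyz2, Ctsd, Lcp1 and Actg1 lie below 0 at CT0 to CT16 and above 0 at CT24 to CT40, while most others lie above 0 in both.

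The series was sampled for rhythms of liver transcripts, and few members had one. In Flox at CT0 to CT40 a 24 h rhythm passed for 2 of 29 tested members, where 22.3% of all entries passed. Cd9, the tetraspanin, had an amplitude of 0.49 on the log2 scale with a peak at CT3.5 (limma adjusted p = 3.69e-04). Its 6 h means went from 6.66 ± 2.65 FPKM at CT0 to CT4 to 4.37 ± 1.57 at CT12 to CT16 (SD, n = 6). The change was larger on the second day, from 7.72 ± 2.75 FPKM at CT24 to CT28 to 3.21 ± 0.708 at CT36 to CT40. Lcp1 had an amplitude of 0.23 with a peak at CT7.1 (limma adjusted p = 0.0292). The next by p were Mpeg1 (amplitude 0.28, limma adjusted p = 0.164) and Fcer1g (0.25, limma adjusted p = 0.236), which did not pass. In LKO 1 member passed, Ctsd (amplitude 0.25, peak at CT13.2, limma adjusted p = 0.0435), where 30% of entries did, and it did not pass under either scaling.

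A 12 h rhythm, the subject of the study, passed for 0 members in Flox and 0 in LKO with limma, where 1.21 and 0.125% of entries passed. At an unadjusted p under 0.05 it was 2 in Flox (Mpeg1 and Actg1) and 0 in LKO. In Flox 1 member passed under median-ratio scaling, under quantile normalization and with a covariate for the ribosomal RNA precursor Rn45s. A difference of the 24 h rhythm between genotypes passed for 0 members, with 2 at an unadjusted p under 0.05 (Cd9 and Mpeg1), where 0.292% of entries passed. The loss of the Cd9 rhythm in LKO was therefore not shown as a difference (limma adjusted p = 0.154).

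**Figure D5:**
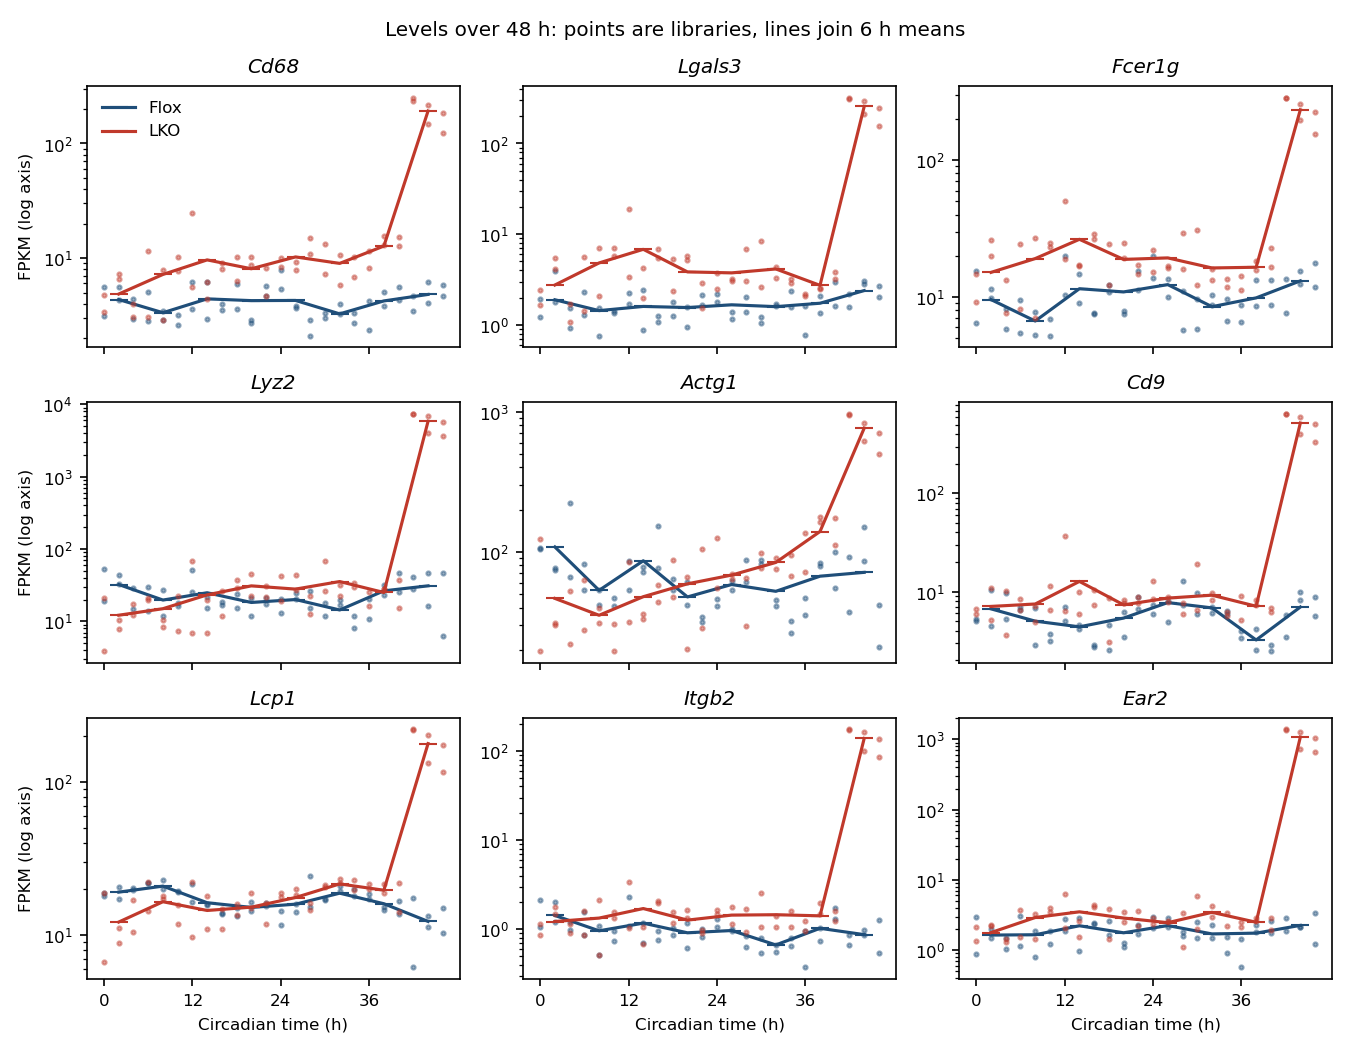
FPKM (log axis) of 9 members against circadian time, with a point for each library and lines through the means of 6 h windows (n = 6) for Flox and LKO. The LKO lines jump at CT42 to CT46, Cd68, Lgals3 and Fcer1g lie higher in LKO before that, and Lyz2 and Actg1 start lower in LKO.

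Of 6 partner pairs, 4 had correlated levels across mice in both genotypes at CT0 to CT40, Trem2 with Tyrobp in LKO, and Coro1a with Lcp1 in neither by Pearson r. For 6 pairs in each genotype, Pearson r and Spearman rho of log2(FPKM + 1) were tested two-sided with 100000 permutations and adjusted over the 12 relations. At this number of permutations no p can be smaller than 1e-05. Fcer1g and Tyrobp had r = 0.83 and rho = 0.82 in Flox and 0.91 and 0.88 in LKO (n = 42 each, permutation p = 1e-05 for each), and r was 0.80 and 0.87 without the 2 libraries farthest from the median. Spi1 and Csf1r had r = 0.81 and 0.72 (rho 0.79 and 0.69, permutation p = 1e-05 for each), and 0.75 and 0.64 without 2 libraries. Itgax and Itgb2 had r = 0.59 (rho 0.45, adjusted permutation p = 1.95e-04 for r) in Flox and 0.68 (rho 0.61) in LKO, or 0.54 and 0.52 without 2 libraries.

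Cyba and Cybb had r = 0.40 in Flox (rho 0.35, adjusted permutation p = 0.00996 for r) and 0.59 in LKO (rho 0.41), or 0.36 and 0.43 without 2 libraries. Trem2 and Tyrobp had r = 0.26 in Flox (rho 0.26, adjusted permutation p = 0.0989), which did not pass, and 0.71 in LKO (rho 0.59), or 0.56 without 2 libraries. The difference between the genotypes was not tested. Trem2 and Itgax had not passed the filter of 1 FPKM used in the genotype test. Their means were 0.342 and 0.112 FPKM in Flox and 1.19 and 0.310 in LKO, so their values lie near the floor, most so in Flox. Coro1a and Lcp1 had r = 0.07 in Flox (rho 0.10, adjusted permutation p = 0.659) and -0.31 in LKO (rho -0.34, adjusted permutation p = 0.0591 for r and 0.0336 for rho). Without the 2 farthest libraries r in LKO was -0.45. These correlations share depth, time of day and cell content of each library.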

How the data were processed

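Whole-liver poly(A) RNA of 96 mice was sequenced as stranded mRNA libraries, per the labels' protocols. The authors' deposited table gives FPKM per gene symbol, and per the submitters' processing notes FastQC, Trimmomatic, HISAT2 and Cufflinks were used with build mm10, with versions not given in the sources used here. FPKM as the unit was taken from these tools and the range of values. Depth is unknown in reads, and only relative depth could be read from the steps of values below 0.3 FPKM. A clear step was found for 1051 of 4560 library pairs. For 99.1% of these pairs it lay within 0.03 log2 of the difference between the fitted depths. Cufflinks shares reads between similar genes by estimation, which can blur near-identical copies.

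The members and all gene lists were chosen with earlier results of these data known. Values were taken as log2(FPKM + 1), entries needed a mean of at least 1 FPKM over the 84 libraries of CT0 to CT40 (29 of 35 members passed), and limma 3.58.1 (R 4.3.3, trend and robust) was fitted to all 9602 entries with time point as a factor, with Benjamini-Hochberg adjustment at 0.05. Days were compared at CT0 to CT16 and CT24 to CT40, and rhythms by 24 h and 12 h cosine and sine terms. The fits were run on simulated data with independent noise of smaller spread than observed. The planted genotype differences and rhythms were larger than those of any member at CT0 to CT40. That run checked the code and says nothing of error rates or power in these data. Each library is 1 mouse, so p-values measure the spread between mice. Members named in full were the 8 with the largest and 3 with the smallest fold, the 6 and 4 with the smallest p for genotype and for 24 h rhythm in Flox, and the partner pairs. Outside the set they were the 10 entries with the largest fold and up to 4 genes per list by p, and further list genes given for their levels were chosen after their values were seen. Fold changes on the log2(FPKM + 1) scale understate those of low genes. Alternatives were the pseudocount, filter, scaling, Rn45s covariate, days, letters, each time point left out and a replicate block. Promoter windows came from RefSeq (GRCm38.p6).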

Additional observations from a re-analysis of the deposited data

Results flagged for a closer look

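Within the 6 libraries labelled LKO at CT42 to CT46, CT44B lay far above the other 5 for 3 monocyte members, with 8.21 FPKM of Ccr2, 4.73 of Cx3cr1 and 25.2 of Plac8. In Flox at the same times CT42B lay far below the others for Ctsz, at 63.6 FPKM, in a library with 17769 FPKM of Rn45s, and CT46A for Cd53, at 0.661 FPKM. These are 5 far samples among 70 groups of 6 libraries, and chance gives about 1 in 20. Ly6c2, another monocyte member, was lowest of the 6 LKO libraries in CT44B, at 9.67 FPKM, and was not flagged.

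For 12 members the genotype difference at CT24 to CT40 differed from that at CT0 to CT16 by an interaction test in limma. The log2 change between days was 1.63 for Actg1, 1.26 for Lyz2, 0.82 for Ctsd, 0.69 for Csf1r, 0.68 for Mpeg1, 0.67 for Cd68, 0.62 for Lcp1, 0.45 for Ccl6, 0.45 for Cybb, -0.58 for Cd52, -0.52 for Coro1a and -0.31 for Ctsz. Over all entries the median change was 0.26.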

How the results depend on the processing

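Of the members tested between genotypes at CT0 to CT40, 23 were higher and 0 lower, and 21 to 23 and 0 with each time point left out in turn. With a filter at a mean of 5 FPKM 14 members were higher, of fewer tested, and median-ratio scaling gave 1 lower and CT0 to CT22 only 3 lower. At CT0 to CT22 only, Csf1r reversed to -0.073 (adjusted p = 0.563 in limma), and the cause was not tested. Over all entries, 4812 were higher with no filter, 1430 higher and 1864 lower with a filter at a mean of 5 FPKM, 1222 lower with log2 Rn45s as a covariate, 590 lower at CT24 to CT40 only, 1832 lower with letter B only, 1671 higher and 1108 lower without letter B, and 1888 lower with all 96 libraries. Between days, 5 members went up and 7 down after median-ratio scaling (2742 and 2896 of all entries) or quantile normalization (2903 and 2808), 1 went down with the Rn45s covariate, and 2344 entries went up and 799 down with a filter at a mean of 5 FPKM. A 24 h rhythm in LKO passed for 0 members after median-ratio scaling, quantile normalization or the Rn45s covariate, and a 12 h rhythm in Flox for 1 in each of these. In Flox at CT0 to CT46 4 members had a 24 h rhythm. The median fold at CT42 to CT46 was 17.6 after median-ratio scaling and 31.6 against Flox at CT42 to CT46, and 22.6 to 25.5 with each of the 6 libraries left out. Coro1a with Lcp1 in LKO had r = -0.41 after median-ratio scaling (adjusted permutation p = 0.00904). Letters are not known to mark batches. Same-lettered libraries did not deviate together (8 of 17 time points with a correlation above 0.1, median 0.0586), and with a replicate block on 38 such pairs 22 members were higher and 0 lower, Csf1r being lost. The count with all 96 libraries includes the 6 that chose the members and is no test of them. Read depth is unknown, so no counting error can be given.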

Other observations

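Y-linked genes, which a male liver expresses, were present in the 6 libraries labelled LKO at CT42 to CT46, with Ddx3y at 5.56 to 7.27 FPKM and Eif2s3y at 9.77 to 12.7, beside 1.37 to 8.10 and 4.56 to 12.3 in LKO at CT0 to CT40. In the 6 libraries the squamous envelope gene Sprr1a measured 0.1001 to 82.8 FPKM and the surface protein gene Ly6d 1.14 to 528, each highest in CT44B. The inflammatory cytokine gene Tnf averaged 33.9 FPKM there against 0.190 in LKO at CT0 to CT40, the adhesion gene Cd2 101 against 0.586 and the urokinase receptor Plaur 71.8 against 0.424. Of all 13094 entries, 14 lay below every other library in all 6.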
